A study of Mus musculus with 10 samples.

Results

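Transferrin iron uptake is described here by 10 genes chosen by symbol for their place in the pathway: Tfrc, Tfr2, Trf, Steap3, Steap4, Slc11a2, Slc25a37, Glrx5, Aco1 and Ireb2. All 10 were found among the 55414 genes of the count table, and all 10 were among the 14669 genes with enough reads to be tested. RNA sequencing of polyadenylated RNA had been done on 10 libraries of mouse splenic macrophages, isolated on F4/80 magnetic beads, F4/80 being a macrophage surface antigen of the mouse. The 5 WT libraries came from mice labelled C57BL/6N and the 5 Fpr2KO libraries from mice labelled as knockout for Fpr2, which encodes formyl peptide receptor 2, a receptor of myeloid cells. Neither group is labelled with a treatment, and the age and sex of the mice, the strain background of the knockout and the deleted part of Fpr2 were not in the sources used here. Nothing says that the libraries of a group came from separate animals, so the spread behind each p-value is that between these libraries and may be technical.

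Iron travels in plasma bound to transferrin, the product of Trf. Cells take it up through transferrin receptor 1 (Tfrc), which carries transferrin into acidified endosomes, where ferrireductases of the STEAP family (Steap3, Steap4) reduce the iron and DMT1 (Slc11a2) moves it to the cytosol. Mitoferrin 1 (Slc25a37) brings it into mitochondria for heme and for iron-sulfur clusters, whose assembly needs glutaredoxin 5 (Glrx5). Red cell precursors are the heaviest users of this route, whereas red pulp macrophages of the spleen take most of their iron from engulfed red cells. The iron regulatory proteins IRP1 (Aco1) and IRP2 (Ireb2) bind hairpins called iron-responsive elements (IREs) when iron is scarce, which protects mRNAs with IREs in the 3′ untranslated region from decay and blocks translation of mRNAs with an IRE in the 5′ untranslated region.

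The IREs are shown because the region that holds them sets whether IRP1 and IRP2 stabilise a transcript or block its translation. In GENCODE M21 transcripts (build GRCm38), the strand of the mRNA was searched for the loop CAGTGN closing a stem of 5 base pairs, G-T pairs allowed, with a C directly before the stem. Of the 10 genes, Tfrc alone matched, with 4 sites in its 3′ untranslated region on the plus strand of chromosome 16. The loop bases CAGTG are in capitals, and each site is given with its flanks.
Tfrc site at chr16:32631219-32631247: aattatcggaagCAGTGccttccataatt
Tfrc site at chr16:32631598-32631626: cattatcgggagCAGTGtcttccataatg
Tfrc site at chr16:32631663-32631691: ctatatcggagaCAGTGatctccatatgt
Tfrc site at chr16:32631710-32631738: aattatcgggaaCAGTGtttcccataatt

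In the 5′ untranslated region the matches included Fth1 and Ftl1 (the ferritin chains), Slc40a1 (ferroportin, the iron exporter) and Alas2 (the erythroid enzyme that starts heme synthesis). The Ftl1 site lies on the minus strand and the Fth1 site on the plus strand, and both are shown to compare the loops of the 2 regions.
Fth1 site at chr19:9982732-9982760: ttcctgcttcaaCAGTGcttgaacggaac
Ftl1 site at chr7:45459779-45459807: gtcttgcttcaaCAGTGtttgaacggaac
Among all genes with an annotated region, 0.615% held a match in the 3′ and 0.151% in the 5′ untranslated region. A match is a description of the letters, and Slc11a2 gave none under this search.

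Library totals ranged from 15865820 to 19060188 counts. Fpr2 had 0 reads in every Fpr2KO library and between 19.2 and 33.6 CPM (counts scaled to library size with edgeR's TMM factors) in WT. Macrophage markers were present in both groups: Adgre1, which encodes F4/80, averaged 524.0 ± 60.1 CPM in WT libraries and 524.5 ± 63.4 in Fpr2KO libraries (SD, n = 5), and Vcam1 averaged 2119 ± 316.7 and 2116 ± 323.8 CPM. Of 14 red pulp macrophage markers, 7 had higher and 7 lower estimates. The groups did not overlap for Cd163, the hemoglobin scavenger receptor, at 278.7 ± 39.8 CPM in WT and 382.9 ± 23.0 in Fpr2KO (log2 fold change 0.46, SE 0.10, FDR = 0.135 by edgeR, adjusted p = 0.0041 by DESeq2). Markers of other cells moved with the groups. Summed erythroid markers spanned 43.2 to 423.3 CPM in WT and 408.0 to 988.6 CPM in Fpr2KO, and all 19 of those tested had higher estimates in Fpr2KO. Summed neutrophil markers spanned 942.3 to 1570 CPM in WT and 533.4 to 993.3 CPM in Fpr2KO, and all 12 tested had lower estimates. Summed classical monocyte markers spanned 937.5 to 1459 CPM in WT and 673.4 to 925.6 CPM in Fpr2KO, with no overlap of the sums, and all 8 had lower estimates. Markers of platelets and megakaryocytes had lower estimates in 5 of 5 tested (median -0.77), and those of B cells and of T cells had higher estimates in 6 of 6 each (medians 0.26 and 0.35). No marker in these lists was at 0 in all libraries. In these bulk samples, fewer cells of a type and less RNA per cell cannot be told apart.

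None of the 10 genes passed a false discovery rate (FDR, the p-value adjusted over all 14669 genes) of 0.05 by edgeR's quasi-likelihood test, against 0.0682% of all genes. At an unadjusted p under 0.05, 3 of the 10 were higher in Fpr2KO (Tfr2, Slc25a37 and Glrx5), against 4.88% of all genes, and 1 was lower (Steap4), against 4.92%. The same 4 genes passed by DESeq2 (1.26% of all genes) and 0 of the 10 passed by limma voom (0.0614% of all genes). The groups did not overlap for Tfr2, higher in Fpr2KO (0.825% of all genes), and for Steap4, lower in Fpr2KO (0.566% of all genes). The median log2 fold change of the 10 was 0.19, that of all genes tested 0.01, and 8 of the 10 estimates were above 0, as were 53.2% of all genes. Of those 8, Aco1 and Ireb2 stood at 0.01 and changed sign under some alternatives.

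**Figure D1:**
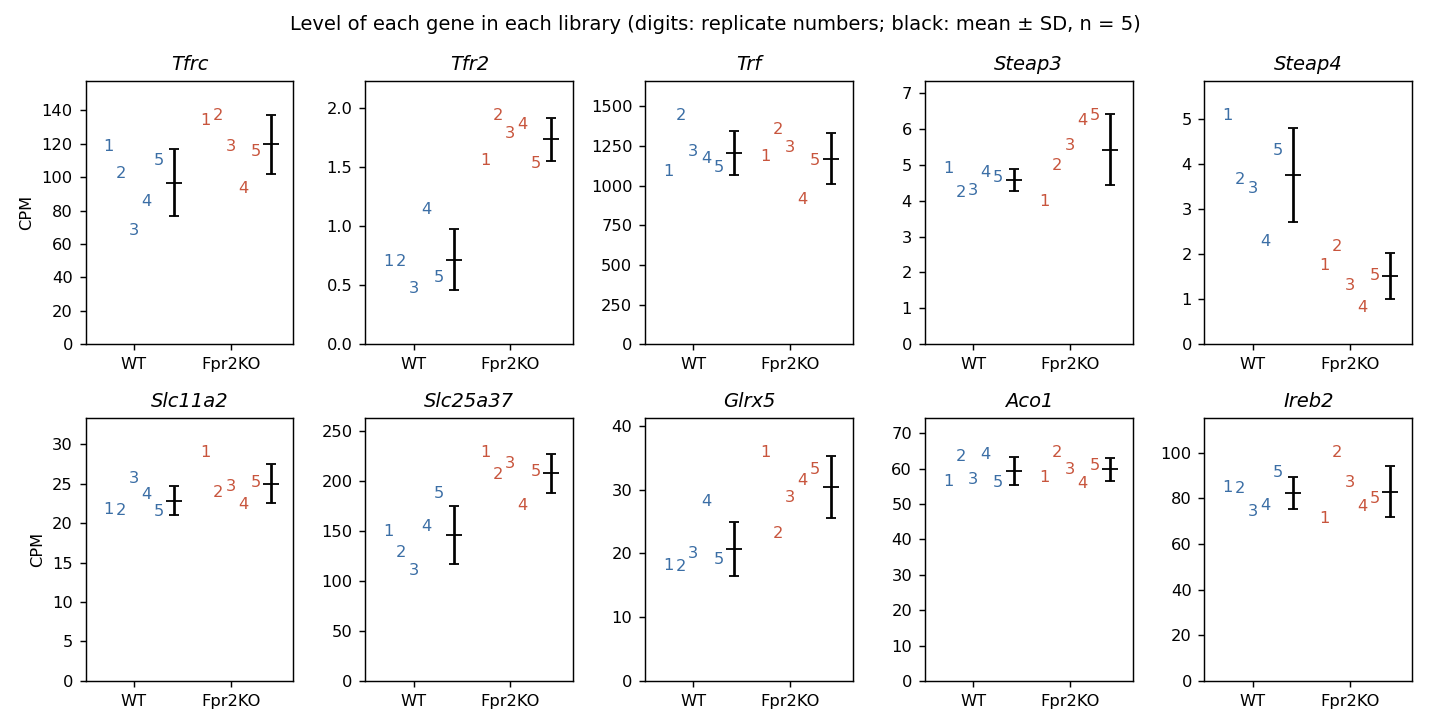
Level of each of the 10 genes in CPM on linear axes from 0, with each library drawn as its replicate number (blue, WT; red, Fpr2KO) and the mean ± SD of 5 libraries in black. Tfr2 and Steap4 show groups that do not overlap, and Aco1, Ireb2 and Trf show groups that lie over each other.

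**Figure D2:**
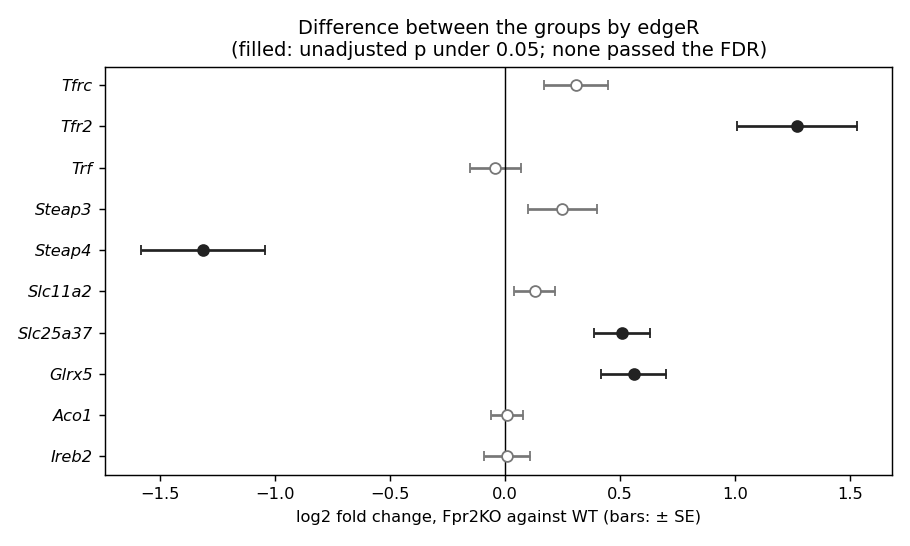
Log2 fold change of each gene, Fpr2KO against WT, with its SE from the edgeR fit of 5 against 5 libraries. Filled points had an unadjusted p under 0.05, and the estimates run from -1.31 for Steap4 to 1.27 for Tfr2.

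The ligand, transferrin, was the most abundant of the 10 transcripts per length. Trf (ENSMUSG00000032554, chromosome 9, 103204001 to 103230444, minus strand) was measured at 363.0 ± 42.5 CPM per kilobase of exon in WT and 351.9 ± 48.3 in Fpr2KO (SD, n = 5). In CPM, the WT libraries, in replicate order, held 1091, 1442, 1214, 1168 and 1110 and the Fpr2KO libraries 1184, 1351, 1237, 914.7 and 1155. The groups overlapped, with the highest value in WT replicate 2 and the lowest in Fpr2KO replicate 4 (log2 fold change -0.04, SE 0.11, FDR = 0.916 by edgeR). The sign of this estimate turned without either of those libraries, to 0.03 in both cases. Of the exon bases of Trf, 63.5% are also annotated as the same-strand gene model Gm20425, which was not analysed here, so its count depends on how such reads were assigned. For the other 9 genes at most 6.33% of exon bases overlap another gene. The summed markers of red pulp macrophages were likewise lowest in Fpr2KO replicate 4, at 9651 CPM, and next lowest in WT replicate 1, at 9665 CPM. By their mean log2 CPM the order of these libraries turned, at 9.107 and 9.069. The sum was highest in WT replicate 3, at 12506 CPM, unlike Trf.

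Both transferrin receptors had higher estimates in Fpr2KO, at very different levels. Tfrc (ENSMUSG00000022797, chromosome 16, 32608920 to 32632794, plus strand), the receptor for cellular iron uptake, held 118.6, 102.1, 68.1, 85.5 and 109.9 CPM in WT replicates 1 to 5. In Fpr2KO it held 133.9, 137.1, 118.7, 93.2 and 115.6 CPM. The groups overlapped: Fpr2KO replicates 4 and 5 lay inside the WT range, and the other 3 lay above all WT libraries. The difference was not past the FDR (log2 fold change 0.31, SE 0.14, unadjusted p = 0.0516, FDR = 0.516 by edgeR), and it fell to 0.20 without WT replicate 3, the lowest library, so the estimate rests in part on that library.

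Tfr2 (ENSMUSG00000029716, chromosome 5, 137569840 to 137587481, plus strand) encodes transferrin receptor 2, which senses transferrin saturation in liver and is a partner of the erythropoietin receptor in red cell precursors. Its transcripts were rare, between 8 and 34 reads per library. In WT the libraries held 0.70, 0.702, 0.468, 1.14 and 0.568 CPM and in Fpr2KO 1.56, 1.94, 1.78, 1.86 and 1.53 CPM. All 5 Fpr2KO libraries lay above all 5 WT libraries, and WT replicate 4 stood nearest to them. The Tfr2 difference was 2.41-fold, or 1.27 on the log2 scale (SE 0.26, FDR = 0.112 by edgeR). It passed by DESeq2 (adjusted p = 0.0109) and without WT replicate 4 (FDR = 0.0405 by edgeR). Its FDR by edgeR was highest, at 0.331, without Fpr2KO replicate 3.

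Within a library, the reads of Tfr2 relative to those of Tfrc do not depend on scaling by library size. Per length, Tfr2 stood at 0.0109 ± 0.00467 of Tfrc in WT and at 0.0211 ± 0.00446 in Fpr2KO (SD, n = 5), so Tfrc remained by far the more abundant receptor. This ratio rose by 0.98 on the log2 scale (exact permutation p = 0.0238, two-sided, adjusted p = 0.0476 over 4 gene pairs, n = 5 and 5). The 4 pairs were chosen with earlier results of these data known, and the adjustment does not cover that choice. The ratio uses the same Tfr2 reads as the estimate of 1.27 (FDR = 0.112 by edgeR), so it is not separate evidence. The groups overlapped in WT replicate 4, whose ratio was 0.019, above that of 2 Fpr2KO libraries. Without Fpr2KO replicate 2 the difference was 0.99 and without Fpr2KO replicate 3 it was 0.97, each with an adjusted p of 0.0635 by the same exact test.

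Promoter windows from RefSeq (GRCm38.p6, 250 bases before to 50 after a start) covered 7 of the 10 genes, without Trf, Slc11a2 and Slc25a37. They were searched on both strands for TGATAA and AGATAA, and for both with G as the last base, the words bound by the erythroid factor GATA1, because the erythroid markers and Tfr2 were higher in the same group. At least 1 such word stood in 29.8% of all 32851 windows and in 33% of all genes with a window, and 2 of the 7 genes had one, Tfr2 and Steap3, each of which has several windows. In Tfr2 the word, in capitals, stood 61 bases before 1 of its 3 annotated starts, on the plus strand.
Tfr2 at chr5:137570902-137570931: gcctgtcagggcTGATAAggggccctctag
No binding was measured in these samples, and the letters alone do not show a site.

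The ferrireductases differed from each other. Steap4 (ENSMUSG00000012428, chromosome 5, 7960457 to 7982213, plus strand), a metalloreductase known for its induction in inflammation, held 5.09, 3.67, 3.45, 2.28 and 4.31 CPM in WT replicates 1 to 5. In Fpr2KO it held 1.76, 2.18, 1.31, 0.82 and 1.53 CPM, from 15 to 36 reads per library. No Fpr2KO library reached the lowest WT library (log2 fold change -1.31, SE 0.27, FDR = 0.112 by edgeR). Steap4 passed by DESeq2 (adjusted p = 0.00181), without WT replicate 4 (FDR = 0.0436 by edgeR) and with no filter on low counts (FDR = 0.00874 by edgeR). Without Fpr2KO replicate 3 its FDR by edgeR was highest, at 0.331. The summed neutrophil markers given above also had their lowest value in Fpr2KO replicate 4 and their highest in WT replicate 1, although there the groups overlapped. The summed classical monocyte markers did not overlap between the groups, and they too were lowest in Fpr2KO replicate 4, but highest in WT replicate 5. Among them Chil3 averaged 104.2 ± 22.4 CPM in WT and 42.4 ± 15.5 in Fpr2KO (log2 fold change -1.30, SE 0.27, FDR = 0.165 by edgeR, adjusted p = 1.72e-05 by DESeq2). Whether these marker lists overlapped depended on the measure. By the mean log2 CPM of the list, neutrophil markers did not overlap, with a lowest WT value of 4.941 and a highest Fpr2KO value of 4.793. By the same measure classical monocyte markers did overlap, at 6.233 in WT replicate 1 and 6.235 in Fpr2KO replicate 5. A part of neutrophil or monocyte RNA in the Steap4 difference was not tested.

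Steap3 (ENSMUSG00000026389, chromosome 1, 120190757 to 120272705, minus strand), the main endosomal ferrireductase of red cell precursors, held 4.90, 4.21, 4.27, 4.8 and 4.66 CPM in WT and 3.97, 4.97, 5.53, 6.23 and 6.38 CPM in Fpr2KO. The groups overlapped, since Fpr2KO replicate 1 was the lowest of the 10 libraries and the other 4 lay above all WT libraries. The Steap3 estimate was 0.25 on the log2 scale (SE 0.15, FDR = 0.621 by edgeR). Per length, Steap3 reads stood at 0.721 ± 0.251 of Steap4 reads in WT and at 2.27 ± 1.2 in Fpr2KO (SD, n = 5), and all 5 Fpr2KO ratios lay above all 5 WT ratios. The ratio rose by 1.54 on the log2 scale (exact permutation p = 0.00794, two-sided, the smallest this design allows, adjusted p = 0.0317 over 4 gene pairs, n = 5 and 5). That adjustment, too, does not cover the choice of the pairs with earlier results known. The ratio uses the same Steap4 reads as the estimate of -1.31 (FDR = 0.112 by edgeR), so it is not separate evidence. Without Fpr2KO replicate 3 the difference was 1.49 and its adjusted p 0.0635 by the same exact test. Steap4 thus went from the more abundant of the pair in 4 of 5 WT libraries to the less abundant in every Fpr2KO library.

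**Figure D3:**
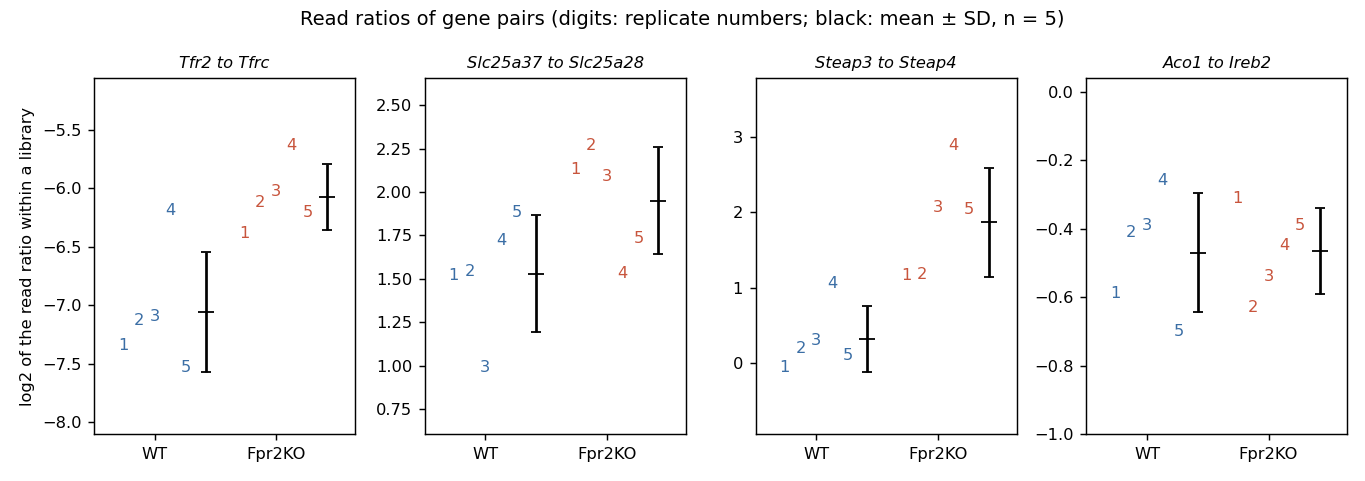
Log2 of the read ratio within each library for 4 gene pairs, each library drawn as its replicate number (blue, WT; red, Fpr2KO) with the mean ± SD of 5 in black, on axes that differ between panels. The Steap3 to Steap4 ratio is higher in all 5 Fpr2KO libraries, and the Aco1 to Ireb2 ratio lies at -0.47 in WT and -0.46 in Fpr2KO.

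Export of iron from the endosome was represented by Slc11a2 (ENSMUSG00000023030, chromosome 15, 100387898 to 100425072, minus strand). It averaged 22.8 ± 1.82 CPM in WT libraries and 25.02 ± 2.49 in Fpr2KO libraries (SD, n = 5). WT libraries spanned 21.5 to 25.7 CPM and Fpr2KO libraries 22.3 to 29.01 CPM, and the groups overlapped apart from Fpr2KO replicate 1, the highest (log2 fold change 0.13, SE 0.09, FDR = 0.664 by edgeR). Without that library the estimate was 0.06. Slc11a1, the phagosomal relative of this transporter in macrophages, averaged 261.9 ± 37.3 CPM in WT and 239 ± 23.2 in Fpr2KO (FDR = 0.699 by edgeR).

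The mitochondrial steps had higher estimates in Fpr2KO. Slc25a37 (ENSMUSG00000034248, chromosome 14, 69241848 to 69285112, minus strand), mitoferrin 1 of red cell precursors, held 150.0, 128.5, 110.4, 154.3 and 188.0 CPM in WT replicates 1 to 5. In Fpr2KO it held 229.4, 206.9, 217.4, 176.0 and 209.9 CPM. The groups overlapped only through WT replicate 5, which lay above Fpr2KO replicate 4. The log2 fold change was 0.51 (SE 0.12, a 1.42-fold difference, FDR = 0.184 by edgeR). Slc25a37 passed by DESeq2 (adjusted p = 0.0237) and without WT replicate 5 (FDR = 0.0401 by edgeR). Its FDR by edgeR was highest, at 0.43, without WT replicate 2.

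Across libraries, Slc25a37 had the order of the erythroid markers in WT: both were lowest in replicate 3, then replicates 2, 1 and 4, and highest in replicate 5. Summed erythroid markers in WT replicate 5 (423.3 CPM) and Fpr2KO replicate 4 (408.0 CPM) were alike, and so was Slc25a37 in this pair of libraries (188.0 and 176.0 CPM). In the same pair, Tfr2 stood at 0.568 and 1.86 CPM, from 10 and 34 reads, and Glrx5 at 19.1 and 31.4 CPM. WT replicate 4, with a lower erythroid sum (295.7 CPM) than WT replicate 5, held more of both genes (Tfr2 1.14 and Glrx5 28.2 CPM). Tfrc stood at 109.9 CPM in WT replicate 5, at 93.2 CPM in Fpr2KO replicate 4 and at 85.5 CPM in WT replicate 4. These values are from single libraries and carry no test. A part of erythroid RNA in the differences of Slc25a37, Tfr2, Glrx5 and Tfrc was not tested.

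**Figure D4:**
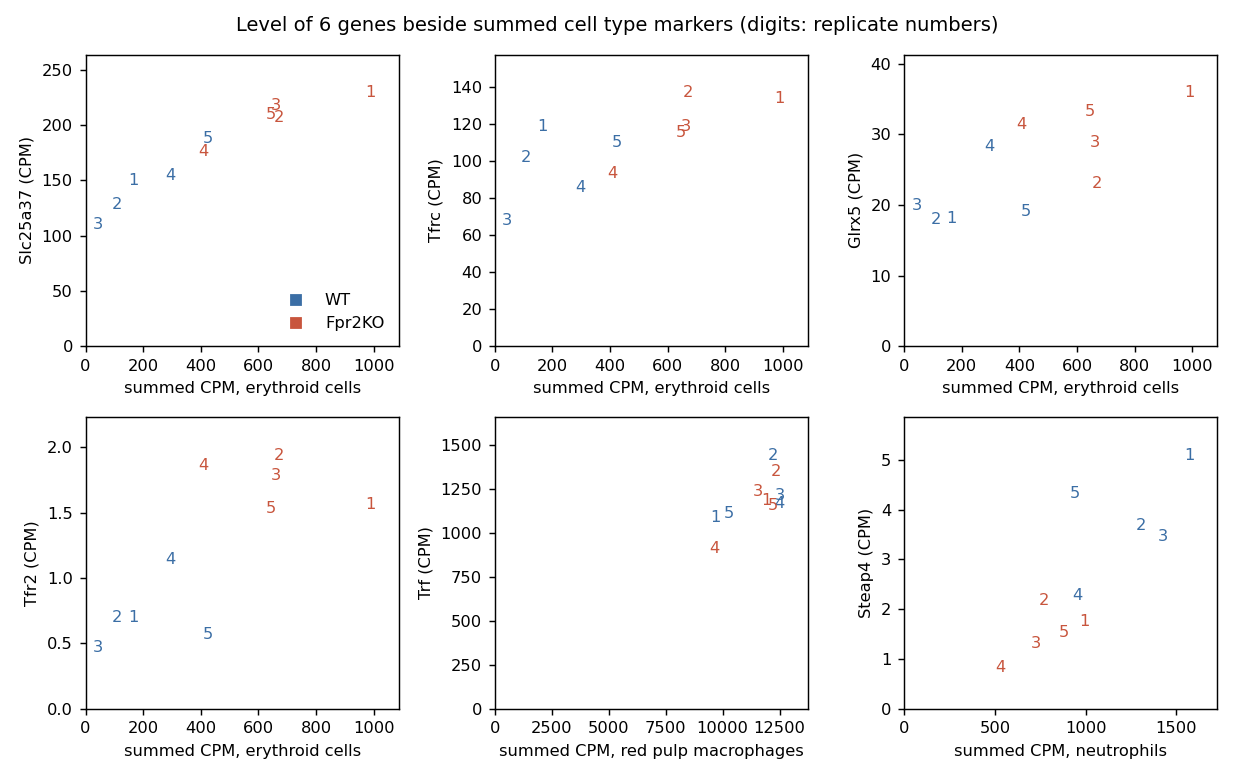
Level of 6 genes in CPM against summed CPM of a marker list, both axes linear from 0, each library drawn as its replicate number (blue, WT; red, Fpr2KO). Slc25a37 climbs with the erythroid sum in WT, and in Fpr2KO apart from replicate 2. Tfr2 and Glrx5 in WT replicate 5 lie well below those of Fpr2KO replicate 4 at a like erythroid sum. They also lie below those of WT replicate 4, whose erythroid sum is lower. Tfrc in WT replicate 5 lies above that of Fpr2KO replicate 4. Such comparisons are of single libraries, without a test, and Tfr2 rests there on 10 reads in WT replicate 5 and 34 in Fpr2KO replicate 4.

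Slc25a28, which encodes mitoferrin 2 of other tissues, averaged 50.1 ± 4.47 CPM in WT libraries and 54.1 ± 8.14 in Fpr2KO libraries (SD, n = 5). Its log2 fold change was 0.11 (SE 0.10, FDR = 0.737 by edgeR). Per length, mitoferrin 1 reads exceeded those of mitoferrin 2 in each of the 10 libraries, at 1.83 ± 0.392 times in WT and 2.45 ± 0.496 times in Fpr2KO. The log2 difference of this ratio was 0.42 and did not pass (exact permutation p = 0.0635, two-sided, adjusted p = 0.0847 over 4 gene pairs, n = 5 and 5). Without Fpr2KO replicate 4 its adjusted p was 0.0423.

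Glrx5 (ENSMUSG00000021102, chromosome 12, 105032688 to 105042906, plus strand), which hands on iron-sulfur clusters inside mitochondria, held 18.1, 17.99, 19.97, 28.2 and 19.1 CPM in WT replicates 1 to 5. In Fpr2KO it held 35.9, 23.1, 28.9, 31.4 and 33.2 CPM. WT replicate 4 stood apart from the other WT libraries and lay above Fpr2KO replicate 2, and 4 of 5 Fpr2KO libraries lay above all WT libraries. The Glrx5 difference was 0.56 on the log2 scale (SE 0.14, FDR = 0.192 by edgeR). It passed by DESeq2 (adjusted p = 0.0315) and without WT replicate 4 (log2 fold change 0.70, FDR = 0.0416 by edgeR). Its FDR by edgeR was highest, at 0.446, without WT replicate 2.

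The iron sensors showed no detectable difference. Aco1 (ENSMUSG00000028405, chromosome 4, 40143081 to 40198338, plus strand), cytosolic aconitase and IRP1, averaged 59.4 ± 3.99 CPM in WT libraries and 59.8 ± 3.38 in Fpr2KO libraries (SD, n = 5). Its libraries spanned 56.2 to 64.01 CPM in WT and 55.9 to 64.7 CPM in Fpr2KO, so the groups covered the same range. Ireb2 (ENSMUSG00000032293, chromosome 9, 54863789 to 54912530, plus strand), IRP2, averaged 82.4 ± 6.83 and 82.98 ± 11.3 CPM, with the highest and the lowest of the 10 libraries both in Fpr2KO. The log2 fold changes were 0.01 for each (SE 0.07 and 0.10, FDR = 0.977 and 0.979 by edgeR). Per length, Aco1 stood at 1.53 ± 0.181 of Ireb2 in WT and 1.53 ± 0.133 in Fpr2KO, and the log2 difference of the ratio was 0.01 (exact permutation p = 0.952, two-sided, n = 5 and 5).

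Per kilobase of exon, the order of the 10 genes in WT after Trf was Slc25a37 (24.3 CPM per kilobase), Tfrc (15.7), Aco1 (13.2), Ireb2 (8.69), Glrx5 (5.62), Slc11a2 (3.59), Steap4 (1.19), Steap3 (0.799) and Tfr2 (0.165). Of these neighbours, only Tfrc and Aco1 lay within their spread, that is, their means differed by less than the larger SD (3.26 and 0.888, n = 5). In Fpr2KO the order was the same except that Steap3 (0.948) stood above Steap4 (0.482). There Ireb2 and Glrx5 (8.75 and 8.28, SD 1.19 and 1.32), as well as Steap4 and Tfr2 (0.482 and 0.40, SD 0.161 and 0.0418), lay within their spread.

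Transcripts with IREs, other than Tfrc, and genes of IRP turnover gave a mixed picture: of 9 tested, 5 had higher and 4 lower estimates, with a median of 0.01, and 0 passed the FDR by edgeR. At an unadjusted p under 0.05, 2 were higher (4.88% of all genes) and 1 was lower (4.92% of all genes). Alas2 averaged 175.8 ± 77.0 CPM in WT libraries and 336.9 ± 92.7 in Fpr2KO libraries (SD, n = 5). Its log2 fold change was 0.94 (SE 0.34, FDR = 0.428 by edgeR), and that of Cdc42bpa, a kinase of the cytoskeleton, was 0.59 (SE 0.20, FDR = 0.369 by edgeR). Fbxl5, the ubiquitin ligase subunit that removes IRP2 when iron is plentiful, had one of -0.25 (SE 0.09, FDR = 0.418 by edgeR), from 136.2 ± 11.2 to 115.0 ± 13.9 CPM. The ferritin and ferroportin transcripts differed little: Fth1 had a log2 fold change of -0.07 (SE 0.11), Ftl1 one of 0.01 (SE 0.13) and Slc40a1 one of -0.03 (SE 0.13). These values are transcript levels, and translation, through which a 5′ IRE acts, was not measured.

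Genes of mitochondrial iron and iron-sulfur assembly had higher estimates in 17 of 19 tested, with a median of 0.17. Of these, 5 were higher and 0 lower at an unadjusted p under 0.05, against 4.88% and 4.92% of all genes. By edgeR, 0 passed the FDR. Abcb10, the inner membrane transporter that stabilises mitoferrin 1, averaged 25.2 ± 4.42 CPM in WT libraries and 37.2 ± 6.38 in Fpr2KO libraries (SD, n = 5). Its log2 fold change was 0.56 (SE 0.14, FDR = 0.184 by edgeR), and it passed by DESeq2 (adjusted p = 0.0268). Hscb, a co-chaperone of cluster transfer, had a log2 fold change of 0.35 (SE 0.11), Abcb6 one of 0.65 (SE 0.21) and Fam210b one of 0.27 (SE 0.10). Ftmt, mitochondrial ferritin, had 0 reads in every library.

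Heme synthesis, the use to which red cell precursors put this iron, had higher estimates in 8 of 9 enzymes, with a median of 0.55. All 8 had an unadjusted p under 0.05, as did 4.88% of all genes in that direction, and 0 passed the FDR by edgeR. Alad (log2 fold change 0.72, SE 0.15), Urod (0.55, SE 0.11) and Cpox (0.54, SE 0.12) had FDR values from 0.112 to 0.164 by edgeR, and all 3 passed by DESeq2. The exception was Alas1, the housekeeping form of the first enzyme, at 38.7 ± 2.2 CPM in WT libraries and 36.9 ± 2.97 in Fpr2KO libraries (SD, n = 5; log2 fold change -0.07, SE 0.08).

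The other genes of uptake and trafficking had list medians near 0. Of 12 genes of transferrin receptor trafficking, 10 had lower estimates with a median of -0.05, and 0 passed the FDR by edgeR. At an unadjusted p under 0.05, 1 was lower, against 4.92% of all genes. That gene was Picalm, a clathrin adaptor for the transferrin receptor, whose difference was -0.24 on the log2 scale (SE 0.10, FDR = 0.472 by edgeR). Of 11 other ferrireductases and iron transporters tested, 5 had higher and 6 lower estimates with a median of -0.01, and 0 had an unadjusted p under 0.05. The single estimates of these lists reached -0.28 for Tbc1d24 (SE 0.13) and 0.31 for Slc46a1 (SE 0.21). Among cell cycle genes, 12 of 12 had higher estimates with a median of 0.63, and their summed level spanned 252.1 to 511.6 CPM in WT and 442.8 to 638.5 CPM in Fpr2KO, higher in the same group as Tfrc, a gene known to be induced in dividing cells. Over the 10 libraries both were lowest in WT replicate 3 and highest in Fpr2KO replicate 2, while within Fpr2KO the cell cycle sum was lowest in replicate 5 and Tfrc in replicate 4. A part of dividing cells in the Tfrc difference was not tested.

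**Figure D5:**
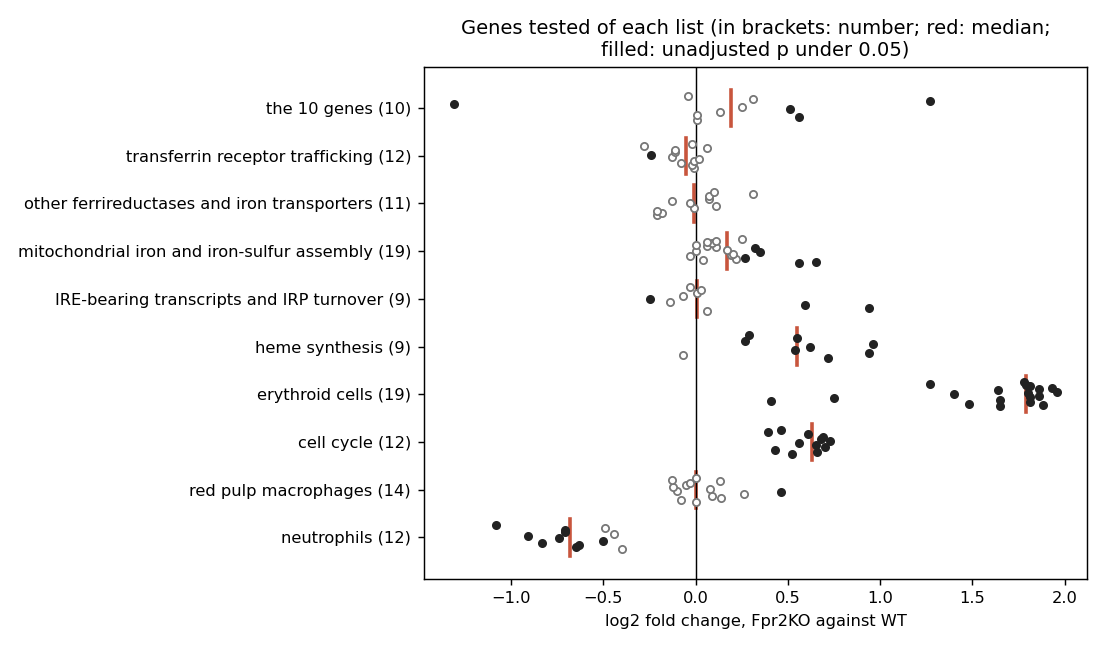
Log2 fold change, Fpr2KO against WT, of each gene tested in 10 lists, with the list's median in red and filled points at an unadjusted p under 0.05. Heme synthesis genes, with a median of 0.55, lie to the right of the trafficking genes, with a median of -0.05, and erythroid markers lie farthest right, with a median of 1.79.

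To describe which transcripts varied most like each gene, Pearson's r of log2 CPM was taken over the 10 libraries against 11229 protein-coding genes. The genes searched had a mean log2 CPM of at least 1. The values are the highest of a long search, so they are a description. Slc25a37 was most like Ermap, a red cell surface protein (r = 0.99, and 0.97 after subtracting group means), Ypel4 (0.98) and Sox6, an erythroid transcription factor (0.98). Tfrc was most like Isca1, an iron-sulfur assembly protein (r = 0.93), Ercc6l (0.93) and Supt16 (0.93). Trf was most like Tspan13 (0.97), the macrophage mannose receptor Mrc1 (0.95) and Galnt3 (0.94). Steap4 was most like Gbe1 (0.97), the neutrophil marker Stfa2l1 (0.97) and Ssh2 (0.96), and Tfr2 was most like Becn1 (0.94), Srsf1 (0.93) and Hnrnpa2b1 (0.93). After subtracting group means, the values for Tfr2 were 0.85, 0.68 and 0.64, so its likeness lay partly in the group difference, and those of the other genes named here were from 0.89 to 0.97. No gene was among the nearest 3 of more than 1 of these 5 genes. With 11229 genes searched, shared neighbours are unlikely beforehand, so no conclusion is drawn from their absence.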

How the data were processed

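The authors deposited raw read counts per Ensembl gene, without normalisation, for 10 libraries. HTSeq 0.10.0, FastQC 0.10.1 and the builds mm10 and GRCm38 are named in the submitters' processing notes; aligner and strand setting were not given in the sources used here, so reads of overlapping genes cannot be told apart. Symbols, coordinates and exon lengths came from GENCODE M21, which matched 52081 of 55414 identifiers. The fit used edgeR 4.0.16 in R 4.3.3 (filterByExpr, TMM, robust quasi-likelihood test, no covariate), two-sided, with Benjamini-Hochberg adjustment over all genes tested. The SE is the log2 fold change divided by the square root of F. Log2 CPM used a prior count of 2. Ratios within a library used a prior count of 0.5 and an exact permutation test over 252 assignments, adjusted over 4 pairs. DESeq2 1.42.0 and limma 3.58.1 were alternatives. The fit was run on simulated counts with the same dispersion for every gene and genes drawn independently. That setting lacks the variation shared between genes in real libraries, so no conclusion is drawn from it. All 20 pairs of libraries within a group differed by more than sampling noise. The genes, lists and tests were chosen with earlier results of these data known. Named genes are the 10, Fpr2, Slc25a28, up to 4 by p-value of each list described, and the 3 most alike; Adgre1, Vcam1, Slc11a1, Ftmt, Alas1, Fth1, Ftl1 and Slc40a1 lie outside this rule and were chosen after their values were seen. Some genes that the rule names are not reported here.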

Additional observations from a re-analysis of the deposited data

Results flagged for a closer look

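Of 28 groups of 5 libraries examined for a library far from the others (10 genes and 4 ratios, each in WT and Fpr2KO), 1 had such a library, and chance gives about 1 in 20. It was the Glrx5 level in WT replicate 4, 28.2 CPM, whose gap to the next WT library was 0.807 of the range of the group.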

How the results depend on the processing

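Leaving out 1 library at a time, the count of the 10 genes past the FDR, 0 with all libraries, ran from 0 to 3, and that of all genes, 10 with all libraries, from 8 to 51. Without WT replicate 4 the genes past the FDR numbered 26, among them Tfr2, Steap4 and Glrx5, without Fpr2KO replicate 2 they numbered 26 with 0 of the 10, and without WT replicate 5 they numbered 51 with Slc25a37. With no filter on low counts 62 genes and 1 of the 10 (Steap4) passed, and with DESeq2 185 and 4. With the replicate number as a block 64 genes and 1 of the 10 (Steap4) passed. Same-numbered libraries did not deviate together throughout (r from -0.239 to 0.291 over 5 numbers). WT replicates 2 and 4 were most like the Fpr2KO library of their own number (r = 0.291 and 0.25), and WT replicates 1, 3 and 5 were not. Whether the numbers pair the samples cannot be told from so few values. The estimate of Aco1 turned in sign with RLE size factors (-0.001), with DESeq2 (-0.001) and without 1 library (from -0.03 to 0.04), that of Ireb2 without 1 library (from -0.08 to 0.05) and that of Trf likewise (from -0.11 to 0.03). Leaving out 1 library, the log2 differences of the ratios ran from 0.86 to 1.20 for Tfr2 to Tfrc, from 1.28 to 1.72 for Steap3 to Steap4, from 0.29 to 0.53 for Slc25a37 to Slc25a28 and from -0.05 to 0.06 for Aco1 to Ireb2. With the replicate block as an exact sign-flip permutation test the differences were 0.98 and 1.54 for the first 2, and neither passed (adjusted p = 0.125), since the smallest p of that test is 0.0625. Steap4 and Tfr2 were not tested under a filter of 50 counts in 5 libraries, which their reads do not reach. Where a cause is not named here, the cause was not tested.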
